A study of Mus musculus with 3 samples.

Results

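Cytosolic ribosomal protein genes were taken as all mouse genes whose symbol starts with Rpl or Rps followed by a number, or with Rplp or Rpsa, without pseudogenes and without the Rps6k kinases and their relatives. The rule names 89 genes in RefSeq, of which Rpl37rt and Rps27rt had no probe here. The remaining 87 genes, with 177 probes, were measured among 20546 genes in all. They comprise 46 canonical large subunit genes, 31 canonical small subunit genes and 10 paralogs or genes named after a ribosomal protein. Each was represented by its brightest probe. Rpl34-ps1 was left out by its symbol although RefSeq lists it as protein-coding, and Rps4l because RefSeq lists it as a transcribed pseudogene.

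RNA of female mice was hybridised to 3 single-colour Agilent arrays, 1 array a group. The SiO2-3TF-3C spleen was labelled as treated with SiO2 (silica) and 3TF-3C, a name the labels do not spell out. The second array held normal liver, the positive control of the labels. The SiO2 spleen was labelled as treated with SiO2 and was the control of the design, so that SiO2 is in the labels of both spleen groups. Spleens were collected on day 82, and 5 samples were pooled per group, without it being said whether the liver was pooled too. Strain and age are not given in the sources used here. With 1 array a group there is no replicate, so no test between groups was run, and the spread between animals is unknown. Differences are on the log2 scale after the array's 75th percentile was subtracted from log2 signal, and a value after ± is the scanner software's technical error of that difference.

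The cytosolic ribosome translates nearly all cellular mRNAs, and each of its subunits is built from ribosomal RNA and a set of small basic proteins that are needed in equal numbers. Their mRNAs are among the most abundant of most cells, start with a short run of pyrimidines (the TOP motif) and are translated together under the control of mTOR. In the spleen and the liver these genes are known mainly as abundant housekeeping messages, and some serve as reference genes. A few members have paralogs that are used in particular tissues or stress states.

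Promoter windows are printed for the members on which the comparisons below turn, the paralogs Rps27l and Rpl39l with their canonical partners, and the canonical genes Rps19 and Rps3. Each runs 5′ to 3′ on the gene's own strand over 100 bases, 70 before and 30 from the start of transcription, taken from RefSeq on GRCm38.p6. The regions are chr9:66946016-66946115 (plus strand) for Rps27l, chr3:90213619-90213718 (minus) for Rps27, chr16:10170158-10170257 (plus) for Rpl39l, chrX:37085193-37085292 (minus) for Rpl39, chr7:24884522-24884621 (plus) for Rps19 and chr7:99483680-99483779 (minus) for Rps3. Capitals mark CTTTCC or CCGGAAG, or its reverse complement CTTCCGG.
Rps27l: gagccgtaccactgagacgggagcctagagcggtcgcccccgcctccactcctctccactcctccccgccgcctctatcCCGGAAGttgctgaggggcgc
Rps27: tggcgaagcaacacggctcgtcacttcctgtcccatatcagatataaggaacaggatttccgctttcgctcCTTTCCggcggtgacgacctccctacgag
Rpl39l: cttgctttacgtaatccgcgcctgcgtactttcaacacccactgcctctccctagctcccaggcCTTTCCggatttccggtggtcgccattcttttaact
Rpl39: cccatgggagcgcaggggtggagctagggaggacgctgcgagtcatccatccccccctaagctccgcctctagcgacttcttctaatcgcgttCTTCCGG
Rps19: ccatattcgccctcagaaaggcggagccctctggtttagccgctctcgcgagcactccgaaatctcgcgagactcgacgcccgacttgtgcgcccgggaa
Rps3: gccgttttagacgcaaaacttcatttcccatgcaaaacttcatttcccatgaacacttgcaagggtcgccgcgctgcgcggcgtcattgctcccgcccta

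Of the 87 genes, 67 had a promoter of 300 bases in the RefSeq table (250 before and 50 from the start). CTTTCC, on either strand (GGAAAG), was present in 31 of these 67 (46.3%), against 25.8% of 17492 promoters of protein-coding genes. CTCTTT, searched with AAAGAG, was present in 27 (40.3%), against 21.6% of all. CCGGAAG, the core of the sites bound by ETS factors, was present in 25 on either strand (37.3%), against 11.9% of all. A C followed by 6 pyrimidines within 20 bases of the start, on the gene's strand only, was found in 34 (50.7%), against 18.6% of all. CTCTTT and CTTTCC can share letters with each other and with the pyrimidine run, so that the 4 counts are not independent. The letters were chosen with the sequences in view, and a match is a description of the window, not a site in use.

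All 87 genes were well above background on all 3 arrays, and 82 of them lay above the 75th percentile of each array. The median intensity of the 87 genes was 22855 in the SiO2-3TF-3C spleen, 16658 in liver and 31373 in the SiO2 spleen. The intensity at the 75th percentile of all probes was 514.7, 389.8 and 568.7 in the same order, and no spot was saturated (0 on each array). The 5 genes below that percentile were all paralogs: Rpl10l, Rpl3l, Rpl39l, Rpl7l1 and Rps23rg1. Replicate spots of the same probe differed with a median SD of 0.08, 0.10 and 0.08 on the log2 scale on the SiO2-3TF-3C spleen, liver and SiO2 spleen arrays.

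On the scaled log2 axis 4 of the 87 genes had their highest level in the SiO2-3TF-3C spleen, 17 in liver and 66 (75.9%) in the SiO2 spleen. Over the 16085 genes well above background on all 3 arrays the SiO2-3TF-3C spleen was highest for 13.7%, liver for 40.9% and the SiO2 spleen for 45.4%. Over 190 other genes as bright as the list the shares were 3.2%, 60.5% and 36.3% in the same order. The count of ribosomal protein genes highest in the SiO2-3TF-3C spleen depended on the scaling and was 30 under quantile normalization, with 7 highest in liver and 50 in the SiO2 spleen. On the scale used here the lowest level was in the SiO2-3TF-3C spleen for 40 (46.0%), in liver for 44 (50.6%) and in the SiO2 spleen for 3 (3.4%). The shares in the same order were 32.0%, 46.2% and 21.8% of the 16085 genes and 64.7%, 23.7% and 11.6% of the bright genes. The levels stayed close together. The range over the 3 arrays was under 0.5 for 60 of the 87 genes (69.0%), against 29.3% of all such genes and 52.6% of the 190 other genes that were as bright. Rpl35 had the smallest range, 0.06, with levels of 6.39, 6.44 and 6.45 in the SiO2-3TF-3C spleen, liver and the SiO2 spleen (named after its values were seen). The range was at least 1 for 4 genes (4.6%), Rps27l, Rpl39l, Rps19 and Rps3, against 35.6% of the 16085 genes and 12.6% of the bright genes.

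**Figure D1:**
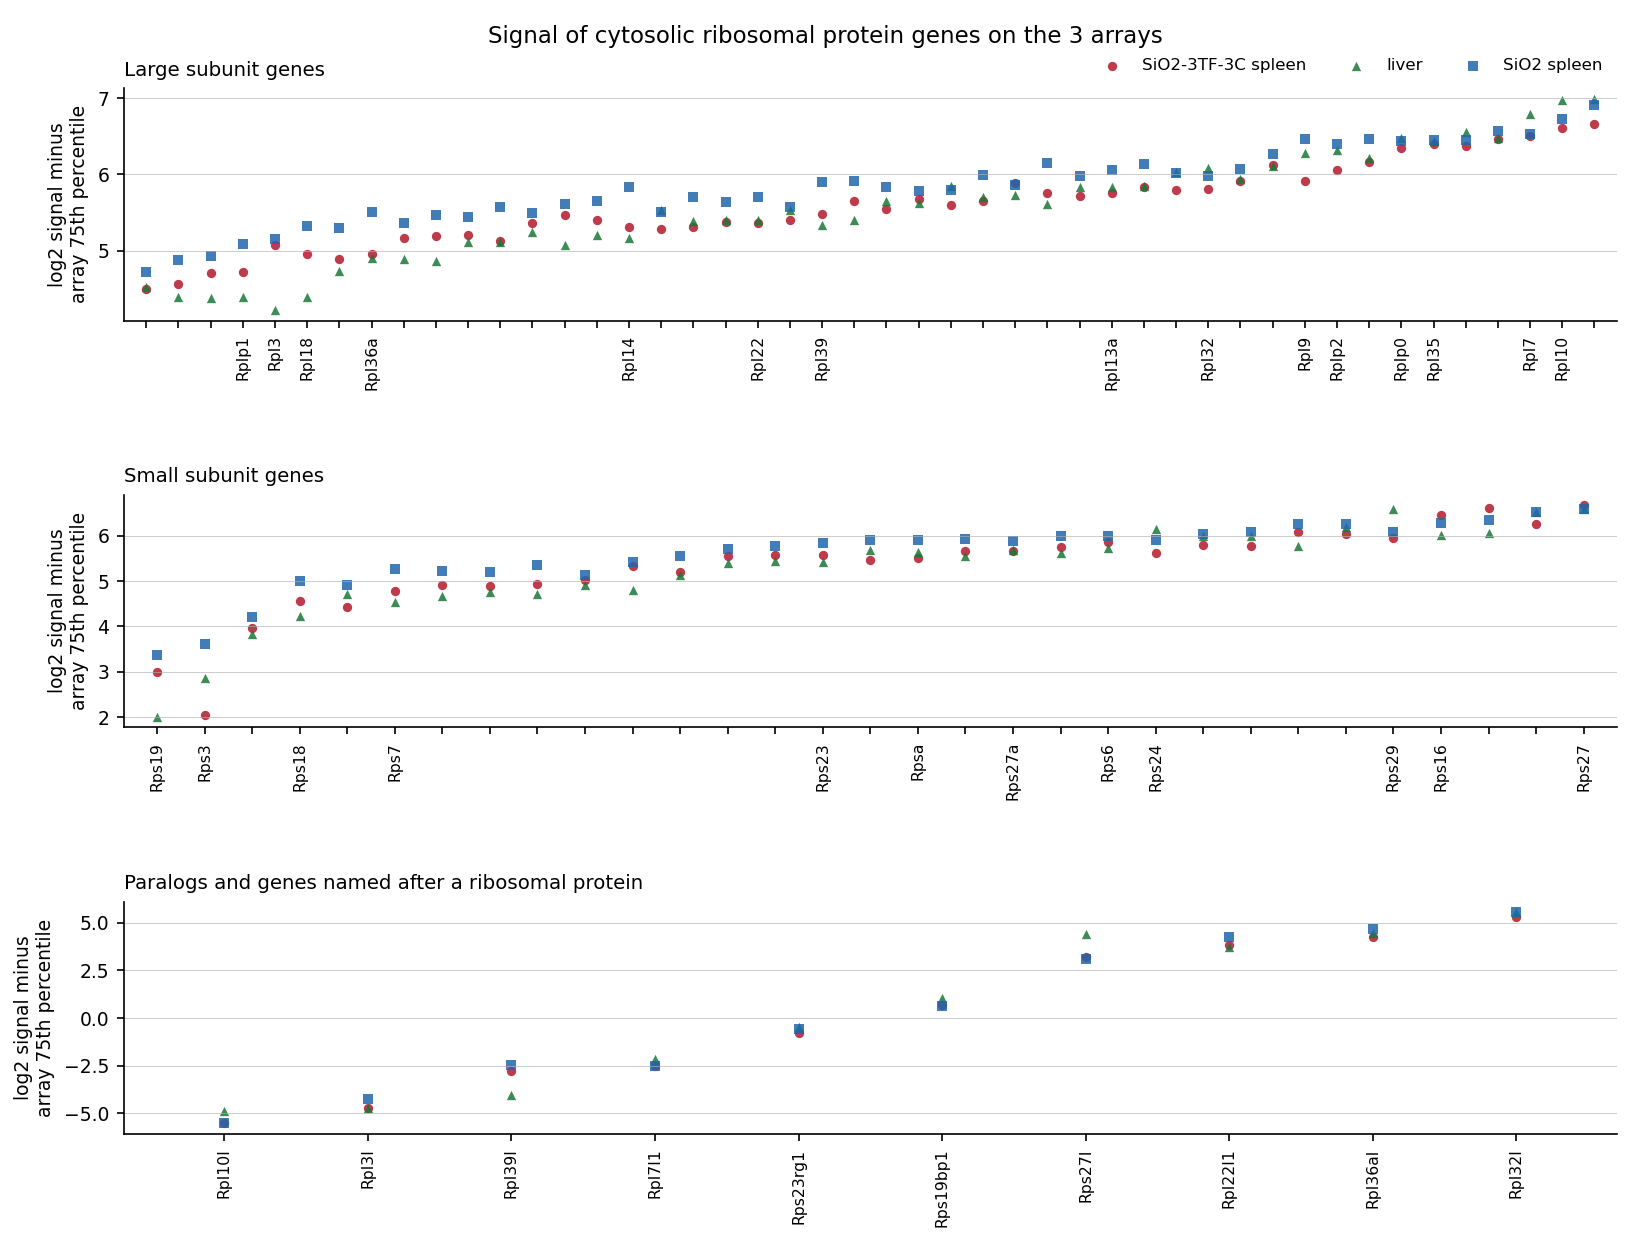
Scaled log2 signal (vertical axis, log2 signal minus the array's 75th percentile) of each of the 87 ribosomal protein genes on the SiO2-3TF-3C spleen array (circles), the liver array (triangles) and the SiO2 spleen array (squares), in panels for large subunit genes, small subunit genes, and paralogs and others. Genes run from the lowest to the highest mean level, and those described in the text are named. Each point is 1 array with no error bar. Squares lie highest for 66 genes on this scale, and the points of Rps19, Rps3, Rpl39l and Rps27l lie furthest apart. Heights of different genes are signals of different probes and are not comparable as abundances.

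The first comparison asks how the SiO2-3TF-3C spleen differed from the SiO2 spleen. Nearly all ribosomal protein genes differed by little: 0 of 87 were at least 2-fold higher and 1, Rps3, was at least 2-fold lower, while over 17639 genes 5.24% were at least 2-fold higher and 1.39% lower. The median log2 difference of the 87 genes was -0.25, with the middle of the list between -0.35 and -0.14. Of the 87 genes 80 were below 0, against 65.6% of all genes, whose median was -0.15, and the 190 equally bright genes had a median of -0.22. These small shifts depended on the scaling: under quantile normalization 53 genes were below 0 and 33 above, with a median of -0.05. In the authors' deposited table, which lists a probe for 68 of the genes, 46 were below 0 and the median was -0.08. It lists the brightest probe for only 48 of them, so its values can differ by probe as well as by scaling. Relative to the median of all genes the list was at -0.10 here, but at 0.05 under quantile normalization and at 0.01 in the authors' deposited table.

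The SD of the differences over the 87 genes was 0.21, against 0.31 for the equally bright genes, 0.18 for 76 mitochondrial ribosomal proteins and 0.18 for 30 proteasome subunits. The SDs depend on single genes, among them Rps3 in the list and Hp, a plasma protein gene, among the bright genes. The distance from the 25th to the 75th percentile, which such genes hardly touch, was 0.20 for the list and 0.27 for the bright genes. Of the 87 genes 83 (95.4%) lay within 0.5 of 0, close to the 92.6% of the bright genes, while the share of all genes was 75.9%. The scanner error of a single difference was about 0.20. Rps16 and Rps3, both of the small subunit, were among the genes more than 2 such errors from the median of the list. Rps16 was above 0, at 0.18 ± 0.20. At the lower end, after Rps3, stood Rpl9 at -0.56 ± 0.20, Rpl36a at -0.55 ± 0.20 and Rpl14 at -0.52 ± 0.20, all of the large subunit. A second probe gave -0.32 for Rpl9 and -0.14 for Rpl14.

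Rps3 encodes a small subunit protein at the mRNA entry of the ribosome that also has roles in DNA repair. Its brightest probe had an intensity of 2124 in the SiO2-3TF-3C spleen, 2815 in liver and 6901.5 in the SiO2 spleen. The log2 difference between the spleens was -1.56 ± 0.20. A second, dimmer probe of Rps3 had 208.0, 117.0 and 255.4 in the same order and differed by -0.15 between the spleens. The 2 probes therefore do not give the same value, and the count of 1 gene at least 2-fold lower was 0 with the mean of the probes, with the dimmer probe and in the authors' deposited table, which does not list the brighter probe.

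**Figure D2:**
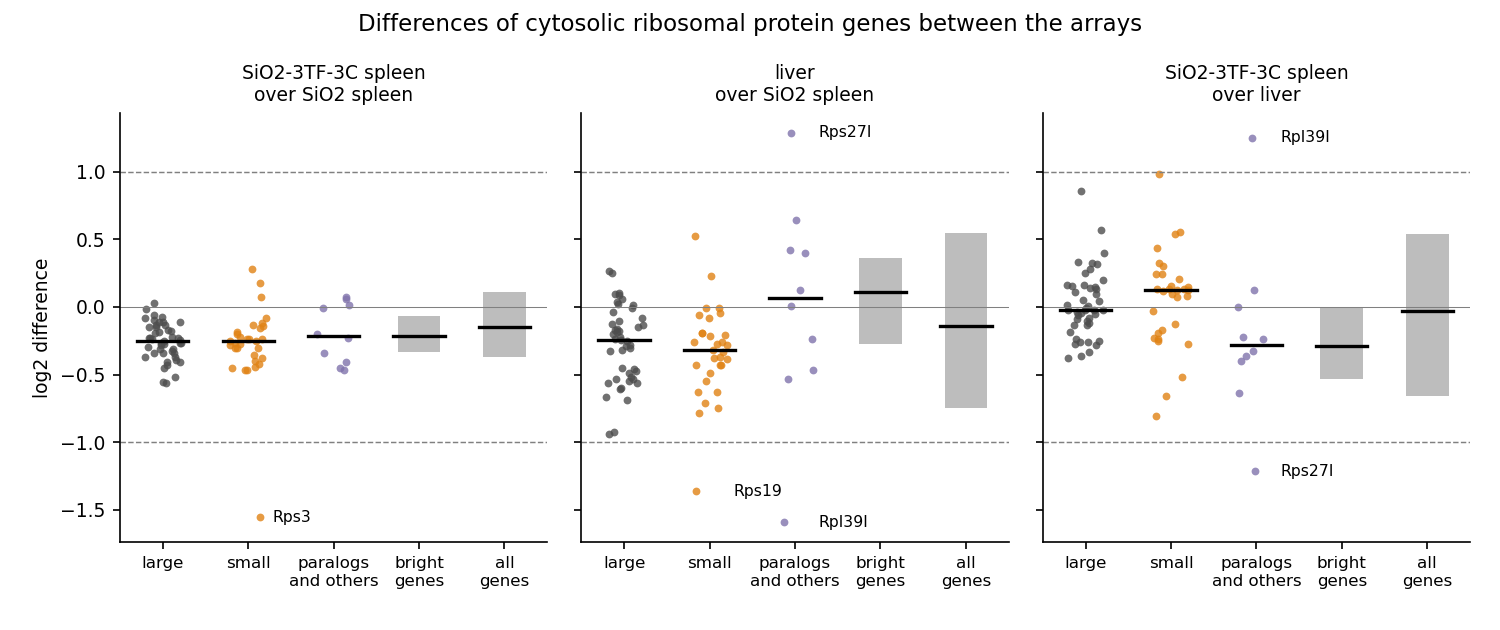
Log2 difference (vertical axis) of each ribosomal protein gene in the 3 comparisons, by class (points, with a bar at the class median). Beside them are the median and the middle of the distribution (25th to 75th percentile, grey box) of the 190 equally bright genes and of all genes entering the comparison. Dashed lines mark 2-fold. In the left panel 83 of 87 points lie within 0.5 of 0 and Rps3 stands apart at -1.56, and the genes past 2-fold are named.

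Markers of several cell types differed between the same arrays. The summed signal of 6 hepatocyte markers was 129.7, 377.5 and 0.19 times the array's 75th percentile in the SiO2-3TF-3C spleen, liver and the SiO2 spleen, and all 6 were past 2-fold in both comparisons with the SiO2 spleen, where Ttr and Apoa1 did not reach the scanner software's background threshold. The sums were 90.4, 52.4 and 132.0 for 6 B cell markers, 18.9, 11.8 and 28.8 for 6 T cell markers, 24.1, 6.06 and 13.0 for 5 erythroid markers and 37.7, 6.62 and 18.4 for 6 markers of proliferating cells, in the same order. Each of these B cell, T cell, erythroid and proliferation markers was well above background on every array, liver included. Between the spleens 0 of 6 B cell and 0 of 6 T cell markers passed 2-fold, while 4 of 5 erythroid and 3 of 6 proliferation markers passed it upward. In bulk RNA fewer cells of a type and less RNA per cell cannot be told apart, and the part of the cell makeup in the differences of the ribosomal protein genes was not tested.

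The second comparison sets normal liver against the SiO2 spleen. Here 1 of 87 genes was at least 2-fold higher, Rps27l, and 2 were at least 2-fold lower, Rpl39l and Rps19, while over 17358 genes 15.4% were at least 2-fold higher and 17.0% lower. The median log2 difference was -0.26, against -0.14 for all genes and 0.11 for the equally bright genes. Of the 87 genes 70 were below 0, against 56.2% of all genes. The median of the list lay below that of all genes under each of 13 settings of scaling, background correction, probe choice and membership, by 0.10 to 0.36. Scaling by the array median or by housekeeping genes shifts both medians nearly alike, so those settings could hardly change this distance. The SD over genes was 0.40, against 0.64 for the equally bright genes.

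Rps19, a small subunit gene whose human counterpart is the most often mutated in Diamond-Blackfan anaemia, a failure of red cell formation, had the lowest difference among canonical members. Its level was 2.99 in the SiO2-3TF-3C spleen, 2.01 in liver and 3.37 in the SiO2 spleen. The difference of liver over the SiO2 spleen was -1.36 ± 0.20, from -1.49 to -1.32 over 13 settings. Rps19 has 1 probe here, so no second probe bears on it. Settings of the probe rule, the filter on dim genes or the fold could therefore not move its value.

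Next in order among canonical members were the large subunit genes Rpl18 at -0.94 ± 0.20 and Rpl3 at -0.93 ± 0.20, whose product lies near the peptidyl transferase centre, and the small subunit genes Rps18 at -0.78, Rps3 at -0.75 and Rps7 at -0.71. Rplp1 of the stalk stood at -0.69. The highest canonical member was Rps29, with levels of 5.94 in the SiO2-3TF-3C spleen, 6.60 in liver and 6.07 in the SiO2 spleen, a difference of 0.53 ± 0.20 in liver over the SiO2 spleen. Rpl7 followed at 0.27, Rpl10 at 0.25 and Rps24 at 0.23. Other probes gave lower values, down to -0.71 for Rpl7 and -0.02 for Rpl10, and a second probe of Rps18 gave -0.05. In all, 16 genes of the list stood more than 2 scanner errors from its median. The same count was not made for other genes, so it does not set the list apart from them.

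The third comparison sets the SiO2-3TF-3C spleen against liver. Of 87 genes, 1 was at least 2-fold higher, Rpl39l, and 1 at least 2-fold lower, Rps27l, while over 17212 genes 10.7% were at least 2-fold higher and 15.9% lower. The list was centred on 0, with 44 genes above and 43 below it and a median of 0.00, against -0.03 for all genes, of which 51.4% were below 0, and -0.29 for the equally bright genes. That balance depended on the scaling: under quantile normalization 77 genes were above 0 and 10 below, with a median of 0.31, and 61 of 68 were above 0 in the authors' deposited table, with a median of 0.25. With housekeeping genes as the base 40 were above 0 and 47 below, with a median of -0.05, and with normexp 48 were above 0 and 39 below, with a median of 0.04. The SD over genes was 0.35, against 0.48 for the equally bright genes. Rps19 at 0.99 ± 0.20 and Rpl3 at 0.85 ± 0.20 were the highest canonical members, and Rps3 at -0.81, Rps29 at -0.66 and Rps24 at -0.52 the lowest. Those 3 low values turned with the dimmest probe, to 0.43 for Rps3, 0.07 for Rps29 and 0.52 for Rps24. The 3 comparisons share arrays in pairs, so the difference of a gene in 1 of them follows from the other two.

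Between the spleens the medians were -0.25 for the 46 large and -0.25 for the 31 small subunit genes, with 45 and 28 genes below 0. For liver over the SiO2 spleen the medians were -0.24 and -0.32, with 37 and 29 below 0. In the SiO2-3TF-3C spleen over liver they were -0.02 and 0.12.

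The stalk proteins Rplp0, Rplp1 and Rplp2 recruit elongation factors to the large subunit. Rplp0 had levels of 6.34 in the SiO2-3TF-3C spleen, 6.47 in liver and 6.44 in the SiO2 spleen. Rplp1 had 4.72, 4.40 and 5.09 in the same order, and Rplp2 had 6.05, 6.31 and 6.39. Between the spleens they differed by -0.10, -0.37 and -0.34, of which the value of Rplp0 turned to 0.08 under quantile normalization and in the authors' deposited table. Set against the SiO2 spleen, liver gave 0.04 for Rplp0, which turned to -0.13 under quantile normalization and in the authors' deposited table, -0.69 for Rplp1 and -0.08 for Rplp2. The other probes of Rplp0 gave -0.34 and -0.23 in that comparison.

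Rps6, the substrate of the S6 kinases, differed by -0.14 between the spleens and by -0.26 in liver over the SiO2 spleen. Rpsa, also known as a laminin receptor, was at -0.40 and -0.27 in the same comparisons. Rps27a, made as a fusion with ubiquitin, was at -0.22 and -0.19, and Rpl13a, often used as a reference gene, at -0.31 and -0.22. All 8 values lay within 0.5 of 0, but that of Rps6 between the spleens turned to 0.05 under quantile normalization and 0.06 in the authors' deposited table, and that of Rps27a in liver to 0.33 with its dimmest probe. In the authors' deposited table, which does not list the brightest probe of every gene, Rps6 stood at -0.93 and Rpsa at -0.83 in liver over the SiO2 spleen. The 8 values are those of the brightest probes. In the same comparison the other probes of Rpsa gave -0.71, -0.74 and -0.70. Those of Rps6 gave -0.77 and -0.49, and those of Rpl13a -0.65 and -0.42.

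The paralogs held both ends of the list in the comparisons with liver. Rps27l, a paralog of Rps27 known as a target of p53, had levels of 3.18 in the SiO2-3TF-3C spleen, 4.40 in liver and 3.11 in the SiO2 spleen. The 2 spleens were close, at a difference of 0.07 ± 0.20, and liver was 2.44-fold above the SiO2 spleen (log2 difference 1.29 ± 0.20). Rps27 had 6.67, 6.59 and 6.60 in the same order, and its difference in liver over the SiO2 spleen was -0.01 ± 0.20. The differences of paralog and partner were thus 1.29 apart, beyond the scanner error of either. Over 11 settings the liver difference of Rps27l ranged from 1.06 to 1.29. Rps27l has 1 probe here, so settings of the probe rule, the filter on dim genes or the fold could not move this value.

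Rpl39l, a paralog of Rpl39 known for its use in the testis, was dim, with intensities of 73.8 in the SiO2-3TF-3C spleen, 23.5 in liver and 103.4 in the SiO2 spleen. Liver was lowest and the spleens were nearer to each other. The difference was -1.59 ± 0.23 in liver over the SiO2 spleen and -0.34 ± 0.21 between the spleens. Rpl39 was at -0.56 ± 0.20 and -0.43 ± 0.20 with its brightest probe. Its other probes gave -0.63 and -1.61 in liver over the SiO2 spleen, so the gap to Rpl39l was not shared by the dimmest probe. The liver difference of Rpl39l ranged from -1.67 to -0.58 over 11 settings, with -0.58 under normexp on median signals with an offset of 50, which is large beside these intensities.

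Among the other pairs, Rpl3l, known from striated muscle, differed by -0.47 ± 0.28 in liver over the SiO2 spleen and Rpl3 by -0.93 ± 0.20. Rps23rg1, a retroposed copy of Rps23, was at 0.13 ± 0.20 and Rps23 at -0.43 ± 0.20. Rpl10l, known from the testis, was at 0.65 ± 0.40 and the X-linked Rpl10 at 0.25 ± 0.20, and the Rpl10l signal was only 11.2, 13.1 and 12.2 in the SiO2-3TF-3C spleen, liver and the SiO2 spleen. The remaining pairs in the same comparison were Rpl22l1 at -0.53 with Rpl22 at -0.30, Rpl36al at -0.23 with Rpl36a at -0.60, Rpl7l1 at 0.40 with Rpl7 at 0.27, and Rpl32l at 0.01 with Rpl32 at 0.10. Between the spleens the widest gap of the 9 pairs was that of Rpl3l, at -0.47, and Rpl3, at -0.07. Rps19bp1, named for its binding to Rps19 and no ribosomal protein itself, was at 0.06 between the spleens and at 0.42 in liver over the SiO2 spleen.

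**Figure D3:**
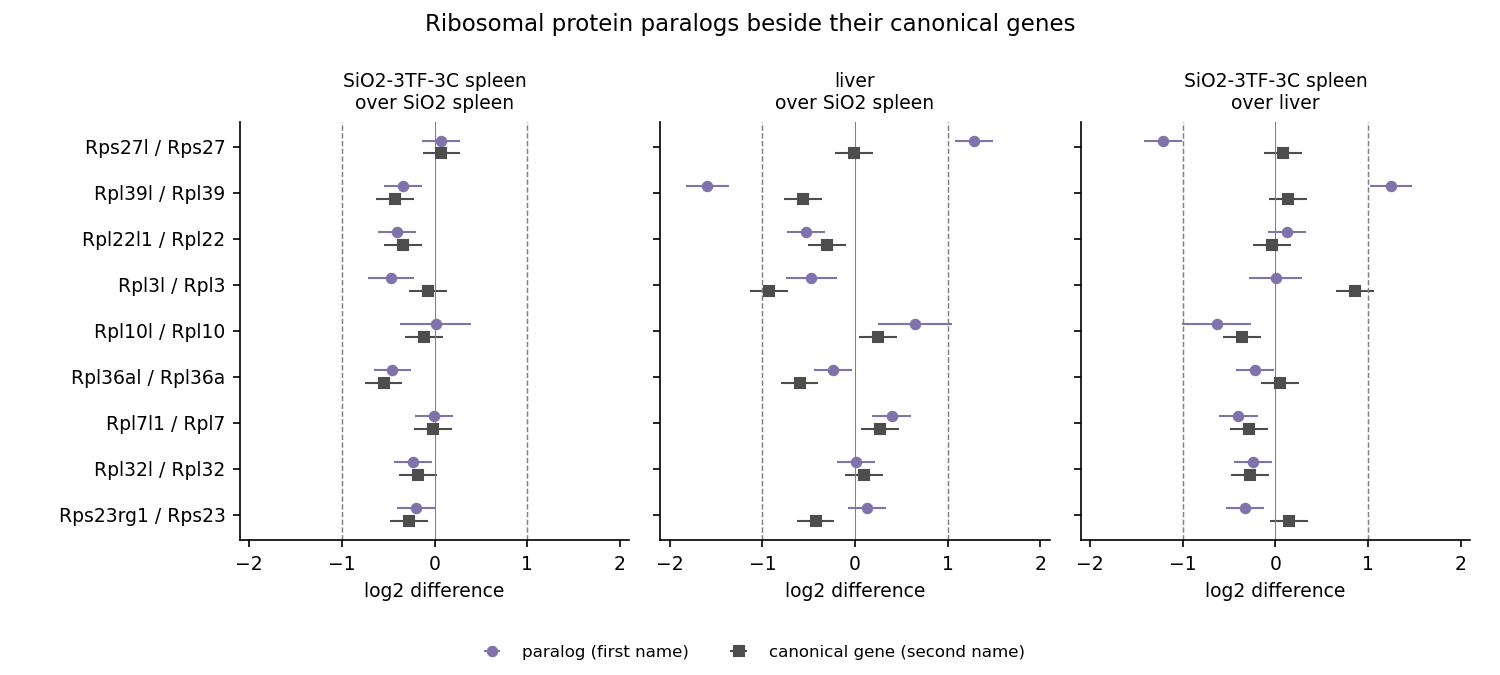
Log2 difference (horizontal axis) of 9 ribosomal protein paralogs (circles) and their canonical genes (squares) in the 3 comparisons, with bars for the scanner software's technical error of the difference. Dashed lines mark 2-fold. In liver over the SiO2 spleen Rps27l stands at 1.29 with Rps27 at -0.01, and Rpl39l at -1.59 with Rpl39 at -0.56. Each gene is shown by its brightest probe, and the dimmest probe of Rpl39 gave -1.61.

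Many ribosomal protein genes have processed pseudogenes elsewhere in the genome, and 327 such symbols are in RefSeq. A probe can take up signal from such copies, but whether probes did so here was not tested. A gene's probes need not give the same value. Of the 87 genes 51 had several probes well above background on all 3 arrays. All probes of a gene were below 0 for 46 of the 51 between the spleens and for 38 in liver over the SiO2 spleen. By 1 probe a gene, 65.6% of all genes and 86.3% of the equally bright genes were below 0 between the spleens. In liver over the SiO2 spleen these shares were 56.2% and 38.4%. Agreement over several probes was not counted for other genes. The median range over the probes of a gene was 0.19 between the spleens, 0.36 in liver over the SiO2 spleen and 0.45 in the SiO2-3TF-3C spleen over liver. Over all 175 such probes the medians were -0.27, -0.33 and 0.07.

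Rps16 had 3 such probes, with differences between the spleens of 0.18, -0.23 and 0.12 from the brightest to the dimmest. The probes of Rps29 gave 0.53, 0.03 and -0.25 in liver over the SiO2 spleen. The 3 probes of Rps24, whose last exons are alternatively spliced, carry accessions of 3 different transcripts. They differed by 0.23, -0.14 and -0.90 in liver over the SiO2 spleen, against -0.28, -0.13 and -0.37 between the spleens. The differences above 0 of Rps16, Rps29 and Rps24 were thus not shared by all their probes.

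The differences with liver also varied with the brightness of the probe. In liver over the SiO2 spleen the median of the probes was -0.47 for 25 probes with a mean level under 2, -0.53 for 19 probes of 2 to 4, -0.56 for 34 probes of 4 to 5, -0.29 for 68 probes of 5 to 6 and -0.02 for 29 probes of 6 and over. The other genes in the same ranges had medians of -0.15, -0.18, -0.17, 0.04 and 0.23. In both sets the medians thus differed little below a level of 5 and were higher above it. Between the spleens the probe medians were -0.25, -0.25, -0.37, -0.26 and -0.16, and those of other genes -0.14, -0.19, -0.24, -0.23 and -0.13. Across the 175 probes brightness and the liver difference had a Pearson correlation of 0.18 and a Spearman correlation of 0.46, given as a description, since all points share the same 2 arrays and probes of a gene share their RNA. The part of probe brightness in the differences of the ribosomal protein genes was not tested.

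**Figure D4:**
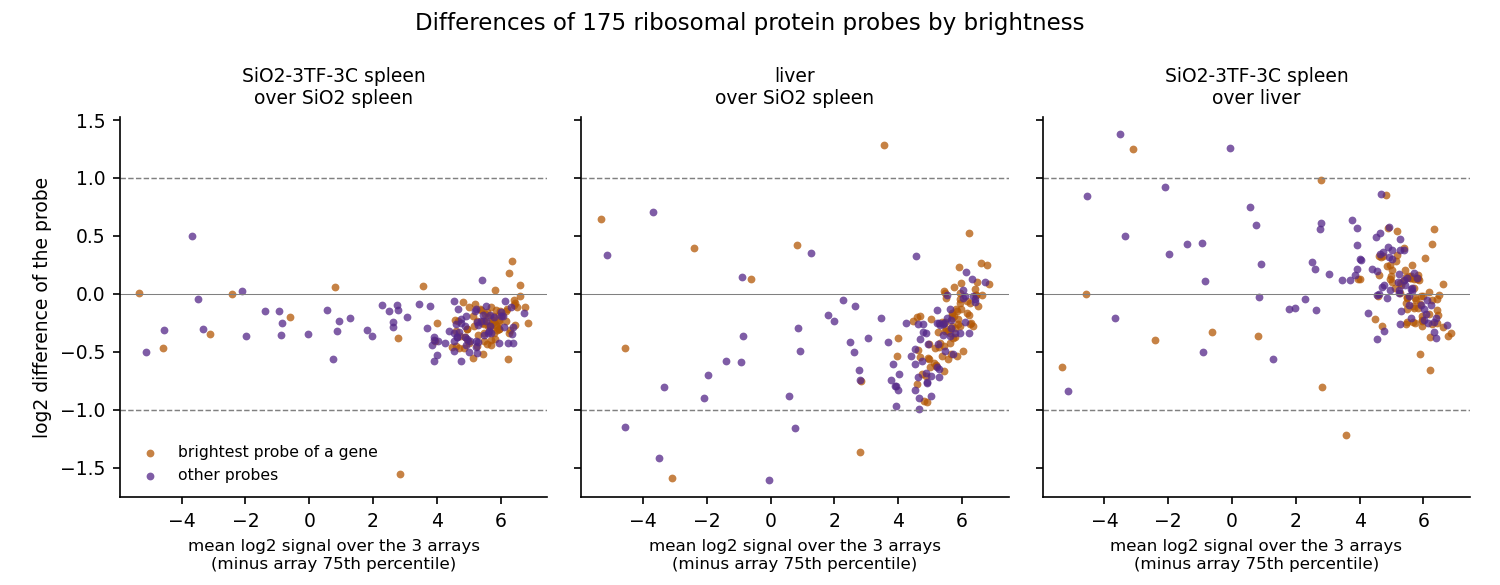
Log2 difference of each of 175 ribosomal protein probes (vertical axis) against its mean scaled log2 signal over the 3 arrays (horizontal axis), in the 3 comparisons, with the brightest probe of each gene and the other probes in separate colours. Dashed lines mark 2-fold. In the middle panel the medians lie between -0.56 and -0.47 for probes below a level of 5, and at -0.29 from 5 to 6 and -0.02 at 6 and over.

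Fau and Rack1 encode ribosomal components whose symbols fall outside the rule. They differed by -0.06 and -0.21 between the spleens and by -0.12 and -0.01 in liver over the SiO2 spleen, and neither was past 2-fold in any comparison. Other groups of the translation machinery were set beside the ribosomal protein genes as lists. Between the spleens no gene of these lists passed 2-fold (0 in each), against 5.24% of all genes upward and 1.39% downward. The medians were -0.16 for 19 elongation factors and other TOP mRNA genes, -0.04 for 25 initiation factors, -0.07 for 38 ribosome biogenesis factors, -0.21 for 18 regulators, 0.00 for 76 mitochondrial ribosomal proteins and -0.07 for 30 proteasome subunits. The signs of the elongation, initiation, mitochondrial and proteasome medians changed with the scaling.

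In liver over the SiO2 spleen the lists lay on both sides of the ribosomal protein genes at -0.26. Over all genes 15.4% passed 2-fold upward and 17.0% downward, and the counts of the lists below are to be read beside these shares. Elongation factors and other TOP mRNA genes had a median of -0.53. Of these 19 genes 0 passed 2-fold upward and 2 downward, the histone chaperone Nap1l1 at -1.47 ± 0.20 and the splicing regulator Hnrnpa1 at -1.16 ± 0.20. The elongation factors Eef1a1 and Eef2 were at 0.16 and -0.44. Ribosome biogenesis factors, which build the subunits in the nucleolus, had a median of -0.52, with 0 of 38 higher and 2 lower, Nolc1 at -1.17 and Gar1 at -1.10. Nucleolin, Ncl, stood at -0.99, and was 1.48 in the SiO2-3TF-3C spleen over liver. The initiation factors had 0 of 25 past 2-fold in either direction and a median of -0.08.

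Mitochondrial ribosomal proteins had a median above 0 in that comparison, at 0.41. Of 76 measured 9 (11.8%) passed 2-fold upward and 0 downward, against 15.4% and 17.0% of all genes, among them Mrpl38 at 1.78 ± 0.20, Mrps27 at 1.44 and Mrpl37 at 1.29. Of 30 proteasome subunits 1, Psmd11 at 1.05, was at least 2-fold higher and 0 were lower, with a median of 0.30. Among 18 regulators of ribosomal protein synthesis, whose shares past 2-fold were near those of all genes, 2 were at least 2-fold higher, the translation repressors Eif4ebp1 at 1.20 and Eif4ebp2 at 1.18. Of the same 18 genes 3 were at least 2-fold lower, the mTOR complex subunit Mlst8 at -1.24, the S6 kinase Rps6kb1 at -1.09 and the transcription factor Myc at -1.07. Larp1, which binds TOP mRNAs, was at 0.66. The medians of the elongation, biogenesis, mitochondrial and proteasome lists kept their sign under every setting run in that comparison.

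In the SiO2-3TF-3C spleen over liver the medians were 0.31 for elongation and TOP mRNA genes, 0.01 for initiation factors, 0.45 for biogenesis factors, -0.13 for regulators, -0.51 for mitochondrial ribosomal proteins and -0.40 for proteasome subunits, against 0.00 for the ribosomal protein genes. The members past 2-fold were 1 higher of 19, 0 of 25, 2 higher of 38, 2 higher and 1 lower of 18, 5 lower of 76 and 1 lower of 30 in the same order. Over all genes 10.7% were at least 2-fold higher and 15.9% lower. The signs of the initiation and proteasome medians changed with the setting.

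**Figure D5:**
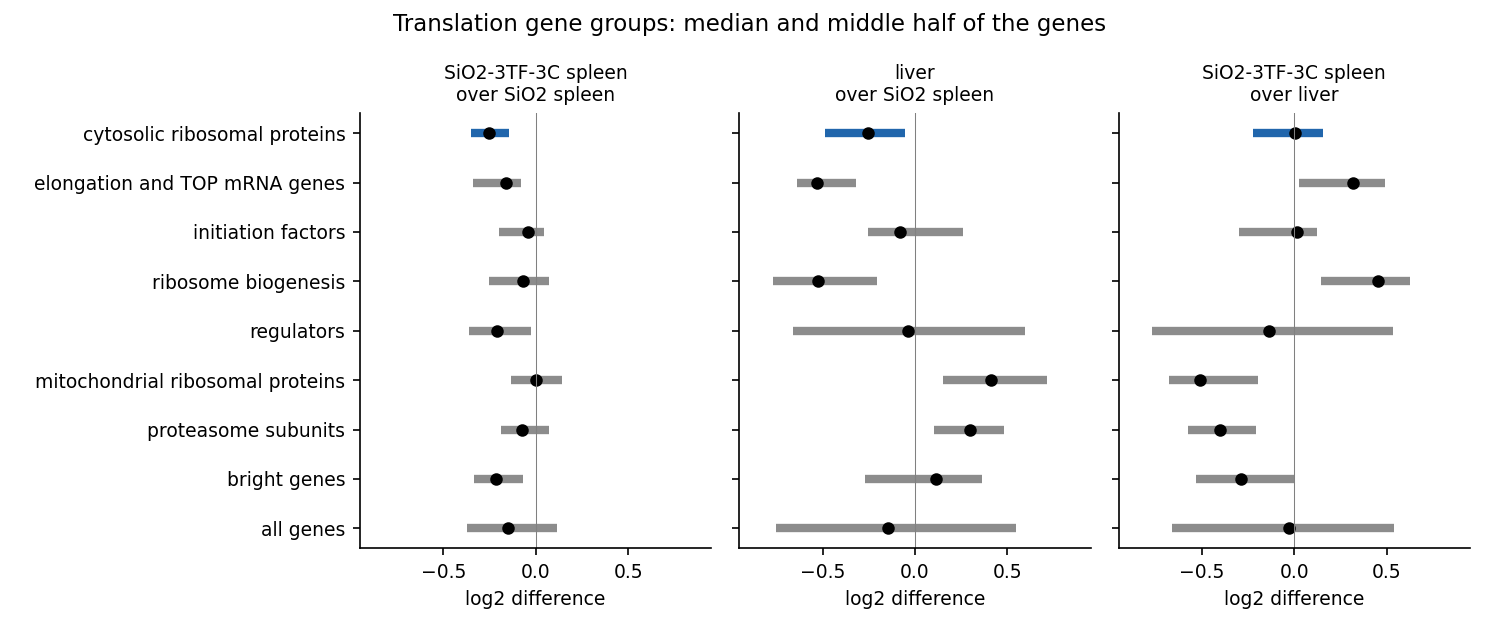
Median (black dot) and middle of the distribution (25th to 75th percentile of the genes, bar) of the log2 difference (horizontal axis) in the 3 comparisons. Shown are the 87 cytosolic ribosomal protein genes (blue), 6 other translation and proteasome lists, the 190 equally bright genes and all genes entering the comparison. In liver over the SiO2 spleen the cytosolic ribosomal proteins stand at -0.26, between the biogenesis factors at -0.52 and the mitochondrial ribosomal proteins at 0.41.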

How the data were processed

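The scanner files were made with Feature Extraction 11.0.1.1 from design 026655 (build mm9), per the file headers, although the submitters' notes on processing name version 9.1 of Agilent Feature Extraction. Each deposited file holds linear intensity values of 1 array after the software's background subtraction, per the file headers, with no scaling between arrays. RNA was prepared with a blood kit and a globin removal step, per the labels. The authors' deposited table holds values on a log2 scale, with column medians of 5.91 and a maximum of 16.58 in each column. Each of its columns followed the log2 signal of its own array most closely, and the normalization behind it is not stated in the labels or headers.

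Control spots and outlier spots were dropped, with outliers numbering 283, 469 and 182 of 43020 spots on the SiO2-3TF-3C spleen, liver and SiO2 spleen arrays. Spots of a probe were averaged, and the 75th percentile of log2 signal was subtracted per array. Probes were named through their RefSeq accession in a RefSeq table on GRCm38.p6, used for names and promoters. Of 39112 probes 27038 received a symbol. The brightest probe stood for a gene. Equally bright genes are non-members whose mean level was at least the members' 25th percentile. Genes well above background on both arrays of a comparison entered counts, medians and percentages of all genes. Genes well above it on only 1 array entered too, with the other signal raised to the lowest well above background if it was lower. They were left out if the difference then had the wrong sign. Such genes numbered 858 of 17639 between the spleens and 1211 of 17358 in liver over the SiO2 spleen. In the SiO2-3TF-3C spleen over liver they numbered 791 of 17212. Of the 87 genes 0 were of this kind. "At least 2-fold" is a rule of size and no test. Alternatives were normexp with an offset of 50 (limma 3.58.1 in R 4.3.3, on median signals because the files hold no mean signals), quantile normalization, the array median, 16 housekeeping genes, the authors' values, other probe rules, filters, 1.5-fold and membership. The script was tested on simulated data. Work was done in Python 3.11.15 with pandas 2.3.3 and matplotlib 3.10.9.

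The named members are those with the 8 highest and 8 lowest differences per comparison, all paralogs and a set of anchor genes, and up to 4 genes of each other list. The ribosomal protein genes, lists and tests were chosen with earlier results of these data known. The 4 promoter searches, the sequences printed, the placing of Rpl32l and Rps23rg1 with the paralogs, the setting without Rps3 and Rpl35 were chosen after values or letters were seen. All arrays lay on the same slide, each at its own position, so that position and group cannot be told apart. Some genes are counted in the lists but not reported by name here.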

Additional observations from a re-analysis of the deposited data

How the results depend on the processing

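No paired analysis was possible because each group has 1 array. Of 150 summary values under 13 alternatives, 122 stayed near the value given, 28 moved and 0 were counted as reversed. Medians near 0 did change sign, among them that of the list in the SiO2-3TF-3C spleen over liver, which ran from -0.05 to 0.31. Medians of the list moved under quantile normalization to -0.0475 between the spleens and 0.31 in the SiO2-3TF-3C spleen over liver, and in the authors' deposited values to -0.0827 and 0.25, with -0.39 in liver over the SiO2 spleen. The count of genes at least 2-fold lower between the spleens was 0 in the authors' values, with the mean over probes, with the dimmest probe and without Rps3. In liver over the SiO2 spleen the count higher was 0 in the authors' values and for canonical members, and 2 at 1.5-fold, and the count lower was 4 under quantile normalization, 1 in the authors' values, 6 with the dimmest probe, 13 at 1.5-fold and 1 for canonical members. In the SiO2-3TF-3C spleen over liver the count higher was 0 with normexp, 3 under quantile normalization, 2 with the array median, 3 with the dimmest probe, 3 at 1.5-fold and 0 for canonical members, and the count lower was 0 under quantile normalization, 0 in the authors' values, 2 with the mean over probes, 4 at 1.5-fold and 0 for canonical members. Shares over all genes under these other settings are not given here. The counts therefore show only how those of the list depend on the setting, and do not set it apart from other genes. The authors' values list neither Rps27l nor Rpl39l, so neither gene could enter the counts in the authors' values. Otherwise the cause of these moves was not tested, apart from the settings that change the genes counted or the fold. The median of all genes in liver over the SiO2 spleen was -0.14 here, 0.07 with normexp and -0.22 in the authors' values. In the SiO2-3TF-3C spleen over liver it was -0.03 here, -0.17 with normexp and 0.10 in the authors' values. The SD of the list stayed below that of the equally bright genes in all 3 comparisons under each of 13 settings. Several of these settings could not change it. Another constant subtracted per array, or a filter on dim genes, leaves both SDs as they are. With 1 array a group, differences near the scanner error of 0.20 are not distinguishable here, and signal over background limits Rpl10l, Rpl3l and Rpl39l most.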

Other observations

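Of the Rps6k genes, which encode S6 and RSK kinases and relatives and were left out by the rule, 10 had a probe. Rps6kl1 was the lowest of them between the spleens, at a log2 difference of -1.42 in the SiO2-3TF-3C spleen over the SiO2 spleen, with levels of -1.75 in the SiO2-3TF-3C spleen and -0.33 in the SiO2 spleen. Rps6ka5 was at -1.18 in liver over the SiO2 spleen and Rps6kb2 at 0.90. Of the 327 pseudogene symbols 3 had a probe, and Rpl34-ps1 was at -0.39 between the spleens, against -0.45 for its parent Rpl34. These genes were chosen after their values were seen.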
